A study of Homo sapiens with 25 samples.

Results

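The measurements described here cover 50 genes of the proteasome, its assembly and its regulation, taken from a table of 31919 genes. They were chosen by name: every gene whose symbol is PSMA, PSMB, PSMC, PSMD, PSME, PSMF or PSMG with a number, plus the maturation factor POMP and the transcription factors NFE2L1 and NFE2L3. The rule uses symbols alone, but it was set with earlier results of these data known. Cap genes with other symbols, such as ADRM1, fall outside it. Of the 50 members, 49 reached 10 normalized counts in 2 or more libraries and were tested together with 18799 genes in all. The remaining member, PSMB11, a thymus-specific core subunit, was at 0 in most libraries and reached 5.47 at most. PSMA8, the testis-specific core subunit, was not among the 31919 genes under that symbol.

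The cells were DND-41, a line derived from human acute lymphoblastic leukaemia of the T lineage, and their RNA was sequenced after culture with decreasing histidine, which is an essential amino acid and has to be taken up. Day 6 is represented by 3 libraries without histidine, 3 at 12.5% of the full amount, 2 at 25%, 3 at 50% and 3 at 100%. Day 9 has 3 libraries at 12.5%, 3 at 25%, 2 at 50% and 3 at 100%. All 9 groups are the same cell line with no other agent named, so the histidine level and the day are the only labelled differences. Whether replicates came from separate cultures is not labelled, and the spread behind the p-values may therefore be technical.

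The 26S proteasome takes apart proteins that carry a ubiquitin chain. Its 20S core is a barrel of outer alpha rings (PSMA genes) and inner beta rings (PSMB genes), and its 19S cap binds ubiquitin, removes it and uses a ring of ATPases (PSMC genes) among further subunits (PSMD genes) to thread the substrate into the core. Lymphoid cells can replace the standard catalytic subunits PSMB5, PSMB6 and PSMB7 by the inducible PSMB8, PSMB9 and PSMB10, which gives the immunoproteasome, known for cutting peptides for display on HLA class I molecules.

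The labelled cell type was checked against its markers. Of 15 T-lineage genes, 14 averaged at least 10 normalized counts, and their sum lay between 61870 and 80245 in every library, while the pre-T-cell receptor gene PTCRA was below 10 throughout. Of 6 myeloid genes, 1 averaged at least 10, and LYZ, ITGAM and MPO were below 10 in all libraries. Of 7 B-cell genes, 5 were measured and 3 averaged at least 10. Their sum lay between 9674 and 22795, so the B-cell list was not absent. The epithelial keratins KRT8, KRT18 and KRT19 added up to between 119 and 1406 in 6 libraries, which were replicates 1 and 2 at 50% and at 100% on day 6 and replicates 1 and 3 at 25% on day 9, and to at most 60.3 in the others. Leaving out these keratin-high libraries leaves 1 library each at 50% and 100% on day 6 and at 25% on day 9, and the fit gives that lone library the spread of the remaining groups. The deposited normalized counts added up to between 13.6 and 16.1 M per library, and the original read totals are unknown. On day 6 these sums were 13.65, 15.0 and 14.5 M without histidine and 13.6, 14.0 and 14.8 M at 12.5%. They were 15.9 and 15.3 M at 25% and 15.6, 15.4 and 15.3 M at 100%. On day 9 the sums at 12.5% were 15.4, 15.0 and 14.4 M, against 15.2, 15.7 and 15.5 M at 100%. The part of these sums in the changes of the members was not tested. Changes are differences of log2(normalized count + 1), each with the standard error that limma gives, and each adjusted p is Benjamini-Hochberg adjusted over the 18799 genes, with a threshold of 0.05.

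The marker sums also moved with the histidine level. On day 6 the T-lineage sum lay between 61870 and 74867 without histidine and between 64910 and 72340 at 12.5%, against 76688 to 78729 at 100%, without overlap. On day 9 it lay between 65608 and 71655 at 12.5%, against 66806 to 78989 at 100%. The sum of 5 B-cell markers was 9674 to 13269 without histidine, 11102 to 16935 at 12.5% and 19331 to 21275 at 25% on day 6, against 15270 to 16901 at 100%. On day 9 it was 9716 to 11511 at 12.5% and 18984 to 22795 at 25%, against 14625 to 18131 at 100%. On each day the median B-cell sum was highest at 25%, and it was lowest without histidine on day 6 and at 12.5% on day 9. The part of either sum in the changes of the proteasome genes was not tested.

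Histidine restriction lowered a part of the proteasome genes at 25% histidine and below, and the change was uneven among subunits of the same complex. At 12.5% histidine on day 6, 21 of the 49 members were lower than at 100% and 1 was higher, where 15.3% of all genes tested were lower and 11.7% were higher. At 12.5% on day 9, 16 were lower and 1 was higher, against 11.5% and 9.35% of all genes. Without histidine on day 6, 13 were lower and 1 was higher, against 16.5% and 13.3% of all genes. At 25% the calls ran both ways: on day 6, 7 members were lower and 5 higher (6.92% and 6.79% of all genes), and on day 9, 11 were lower and 3 higher (8.76% and 9.4% of all genes).

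The median change of the 49 members was -0.30 at 12.5% on day 6, -0.22 at 12.5% on day 9, -0.10 without histidine, -0.09 at 25% on day 9 and 0.06 at 25% on day 6. The medians of all genes tested lay between 0.00 and 0.04 in the same comparisons. After rescaling to the upper quartile, the median of all genes at 12.5% on day 6 moved to 0.12 and that of the members to -0.21, with 18 members lower and 3 higher. The calls over all genes were then 2851 higher and 2384 lower, beside 2196 and 2876 as deposited.

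The days, whose full-medium libraries are separate, shared many of the calls, among the members and among all genes. At 12.5% histidine, 16 members were lower on both days, 76.2% of the 21 on day 6 and 100% of the 16 on day 9, where of all genes called lower 56.8% and 75.7% were shared. At 25%, 7 members were lower on both days, 100% of the 7 on day 6 and 63.6% of the 11 on day 9, beside 70.6% and 55.7% for all genes. At 25%, 3 members were higher on both days, 60% of the 5 and 100% of the 3, beside 76.3% and 55.1% for all genes. These shares are a description, and whether they differ between the members and all genes was not tested. Comparisons of the same day share their full-medium libraries. Over the 5 comparisons at 25% and below, those called lower each time were the cap subunits PSMD2, PSMD1 and PSMC4, the cap assembly factor PSMD10 and the core assembly factor PSMG1. No comparison with 100% histidine called 22 of the 49 members. How many of all genes were called lower each time, or never called, was not counted. In bulk RNA, a smaller share of cells with a transcript and less of it per cell cannot be told apart.

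**Figure D1:**
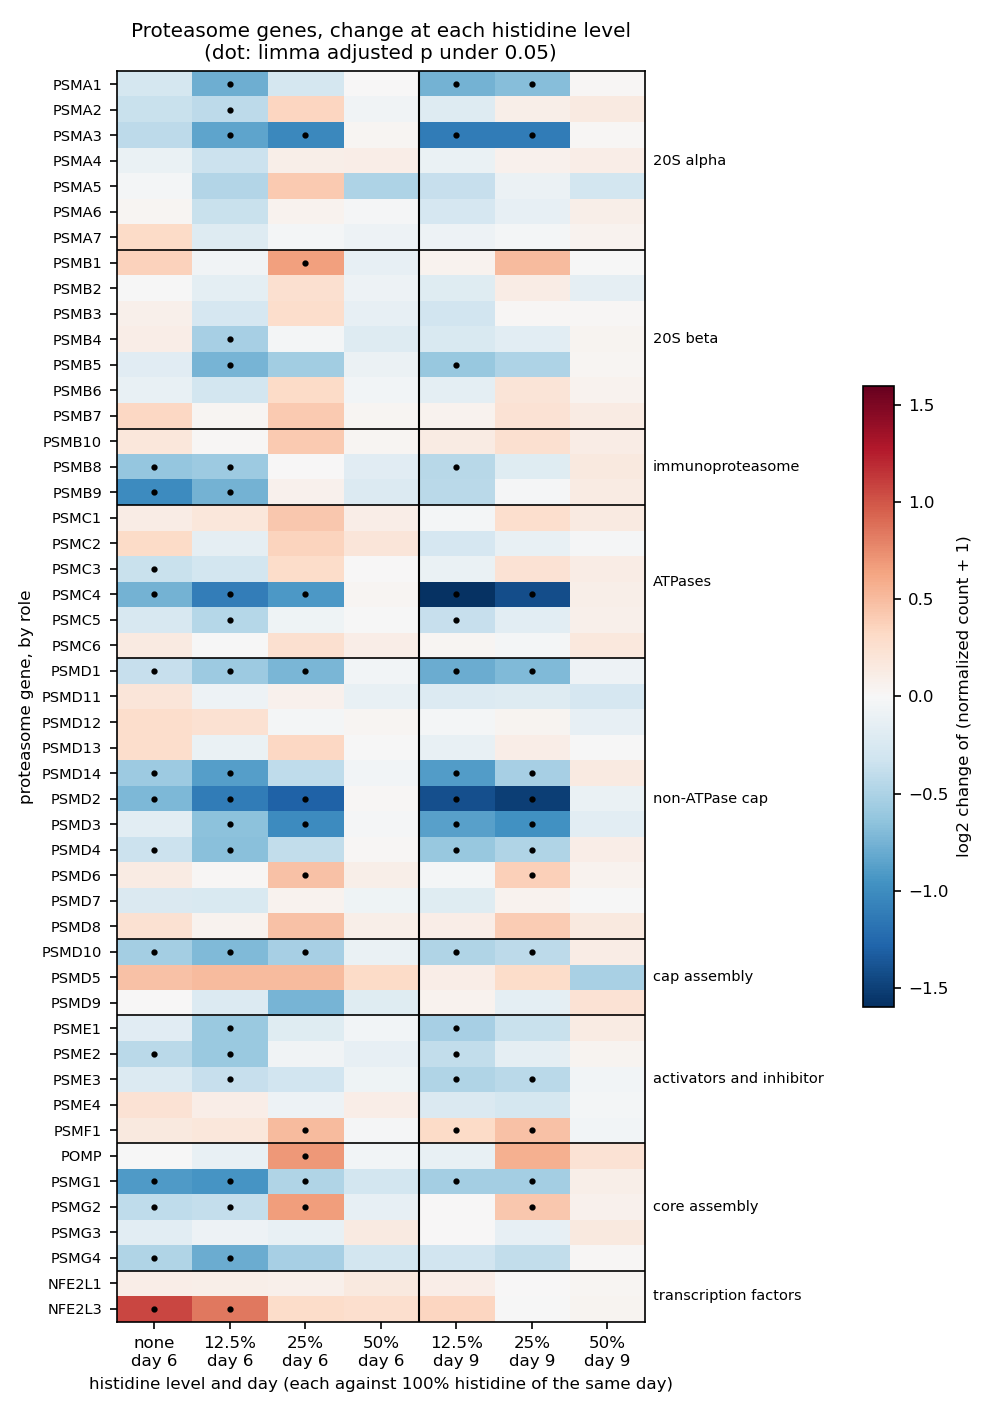
Each row is 1 of the 49 tested members, grouped by role, and each column a histidine level and day against 100% histidine of the same day. Colour gives the log2 change of (normalized count + 1) and a dot marks a limma adjusted p under 0.05. The blue rows PSMD2, PSMC4 and PSMA3 stand between rows of the same complex with little colour, and the 50% columns hold no dot.

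Within the 19S cap, some genes fell while others did not pass the test. Of its 17 genes tested, 6 were lower without histidine, 7 at 12.5% on day 6 and 4 at 25% on day 6. The shares of all genes lower there were 16.5%, 15.3% and 6.92%. On day 9, 7 were lower at 12.5% and 6 at 25%, beside 11.5% and 8.76% of all genes. The lowest log2 change among all members was in a cap gene at 12.5% and 25% on each day (PSMD2, or PSMC4 at 12.5% on day 9), whereas without histidine it was in the inducible core subunit PSMB9. PSMD6 alone among them was called higher, at 25% on both days.

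PSMD2 encodes the large scaffold subunit of the cap that docks ubiquitin carriers, and its gene lies at chr3:184298709-184309054 on the plus strand in GENCODE 29 on GRCh38. On day 6 it had 3200.3, 3316 and 3233 normalized counts without histidine, 2337, 2377 and 2664 at 12.5%, 2141 and 2204 at 25%, 5373, 6319 and 4645 at 50%, and 5428, 5368 and 5217 at 100%. On day 9 it had 2539.8, 2300.2 and 2301 at 12.5%, 2233, 2144 and 2302 at 25%, 5896 and 5858 at 50%, and 5786, 7474 and 5811 at 100%. Every library at 25% and below was under every library at 50% and 100%, and the lowest values were at 25%, not without histidine. The mean at 25% was 40.7% of that at 100% on day 6 and 35.0% on day 9. The log2 changes were -0.72 ± 0.10 without histidine (adjusted p = 4.67e-06), -1.12 ± 0.10 at 12.5% on day 6 (adjusted p = 2.86e-08), -1.30 ± 0.11 at 25% on day 6 (adjusted p = 6.91e-08), -1.41 ± 0.10 at 12.5% on day 9 (adjusted p = 1.46e-09) and -1.50 ± 0.10 at 25% on day 9 (adjusted p = 5.22e-10), and all 5 calls held under every alternative tried.

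PSMC4, an ATPase of the ring at the base of the cap (chr19:39971005-39981441, plus strand), was also lower in all 5 comparisons. Its day 9 values were 578, 312 and 499 normalized counts at 12.5%, 462, 589 and 458 at 25%, 1581 and 1289 at 50%, and 1326, 1449 and 1256 at 100%. The restricted libraries reached at most 589 and the full-medium ones at least 1256. On day 6 it had 528, 738 and 625 without histidine, 501, 449 and 524 at 12.5%, 533 and 578 at 25%, 1061, 1216 and 980.2 at 50%, and 999.5, 1071 and 1093 at 100%. The groups at 25% and below were again apart from those at 50% and 100%, with a log2 change on day 9 of -1.58 ± 0.16 at 12.5% (adjusted p = 3.36e-07) and -1.42 ± 0.16 at 25% (adjusted p = 1.70e-06). On day 6 it was -0.75 ± 0.16 without histidine (adjusted p = 0.00103), -1.10 ± 0.16 at 12.5% (adjusted p = 2.88e-05) and -0.92 ± 0.18 at 25% (adjusted p = 0.00128). The other ATPases moved less: PSMC5 was lower at 12.5% on both days (-0.45 and -0.36), PSMC3 was lower without histidine (-0.36), and PSMC1, PSMC2 and PSMC6 were called in no comparison. Leaving out any 1 library of the no-histidine comparison other than none replicate 2 ended the PSMC3 call, and the PSMC5 call on day 9 was lost without 100% replicate 2 and without 12.5% replicate 2 or 3.

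PSMD3, a subunit of the lid of the cap, separated the no-histidine group from the partly restricted ones. It had 3499, 4117 and 3879.8 normalized counts without histidine, 2602, 2656 and 2926 at 12.5%, 2330.2 and 1967 at 25%, 4164, 4973 and 3689 at 50%, and 4645, 4152 and 4119 at 100% on day 6. The no-histidine libraries overlapped those at 50% and lay above all those at 12.5% and 25%. Its change was -0.66 ± 0.11 at 12.5% on day 6 (adjusted p = 0.00014) and -1.01 ± 0.13 at 25% (adjusted p = 8.54e-06), and it did not pass without histidine. On day 9 it was -0.86 ± 0.11 at 12.5% and -0.97 ± 0.11 at 25%.

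PSMD14, the metalloprotease that cuts ubiquitin chains off the substrate, ordered the levels differently. On day 6 it had 1157, 1439 and 1418 normalized counts without histidine, 924, 1047 and 1328 at 12.5%, 1581 and 1449 at 25%, 1961, 2433 and 1526 at 50%, and 2036, 1890.2 and 2075 at 100%. Its lowest group was 12.5%, and the 25% libraries overlapped those at 50%. The log2 change was -0.59 ± 0.15 without histidine, -0.88 ± 0.15 at 12.5% on day 6 and -0.89 ± 0.15 at 12.5% on day 9, and these calls held under every alternative tried. At 25% it was called on day 9 (-0.53 ± 0.15, adjusted p = 0.0121) but not on day 6, and the day 9 call was lost without 100% replicate 2, without 25% replicate 1 or without the keratin-high libraries, which leaves the 25% group on day 9 with replicate 2 alone. PSMD4, a ubiquitin receptor of the cap, was lower without histidine (-0.35), at 12.5% on day 6 (-0.67) and day 9 (-0.60) and at 25% on day 9 (-0.48). Its call without histidine was lost when none replicate 1 or any 1 of the 100% replicates was left out.

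PSMD1, the partner scaffold of PSMD2 at the base of the cap, had 1245, 1462 and 1319 normalized counts without histidine, 1100.2, 1109 and 1269 at 12.5%, 1089 and 994 at 25%, 1655, 1967 and 1455 at 50%, and 1786, 1662 and 1733 at 100% on day 6. The libraries at 12.5% and 25% reached at most 1269, and those at 100% were at least 1662. Its changes were -0.37 ± 0.12, -0.58 ± 0.12 and -0.73 ± 0.13 at the 3 lowest levels on day 6, and -0.80 ± 0.12 at 12.5% and -0.71 ± 0.12 at 25% on day 9. The call without histidine (adjusted p = 0.0207) was lost when replicate 1 or 3 of either group was left out, and the other 4 held under every alternative tried.

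Of the remaining cap genes, PSMD7, PSMD8, PSMD11, PSMD12 and PSMD13 were called in no comparison. PSMD6, a lid subunit, had 2024 and 1787 normalized counts at 25% on day 6, against 1316, 1373 and 1444 at 100%, and 1971, 2057 and 2194 at 25% on day 9, against 1412, 1766 and 1596 at 100%. All its 25% libraries lay above the full-medium ones of their day, by 0.47 ± 0.15 on day 6 (adjusted p = 0.0376) and 0.39 ± 0.13 on day 9 (adjusted p = 0.0453), but leaving out any 1 compared library on day 6, or any on day 9 except 100% replicate 2, ended the call. Reads of its antisense genes cannot be told apart from its own unless strand was used in the counting, which is not given in the sources used here.

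**Figure D2:**
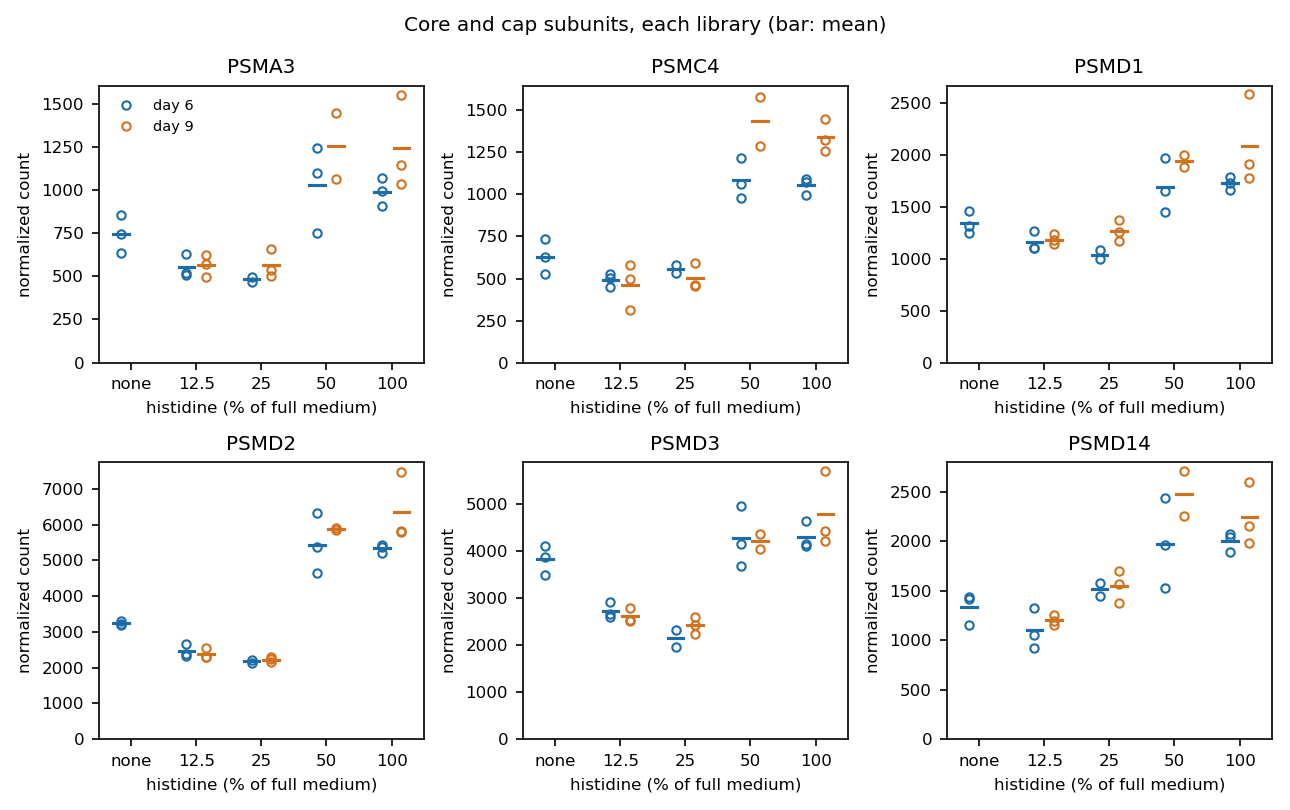
Normalized counts of 6 members (y axis, from 0) by histidine level (x axis, % of the full amount) on day 6 (blue) and day 9 (orange), with a circle per library and a bar at the group mean. Levels at 12.5% and 25% lie below those at 50% and 100% for PSMA3, PSMC4, PSMD1, PSMD2 and PSMD3, and the no-histidine group of PSMD3 sits near 50%.

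In the 20S core, calls were spread over alpha and beta subunits. Of its 14 standard genes none was called without histidine by limma (2 had an unadjusted p under 0.05), where 16.5% of all genes were lower. At 12.5% on day 6, 5 were lower (35.7%, beside 41.2% of the cap genes and 15.3% of all genes): PSMA1, PSMA2, PSMA3, PSMB4 and PSMB5. No test of core against cap counts was made. On day 9, 3 were lower at 12.5% (PSMA1, PSMA3 and PSMB5) and 2 at 25% (PSMA1 and PSMA3). At 25% on day 6, PSMA3 was lower and PSMB1 was higher. The PSMA2 and PSMB4 calls had adjusted p = 0.0495 and 0.0487, and their libraries overlapped between groups. Neither call remained without 100% replicate 1 or 3, without 12.5% replicate 1 or 2, or after upper-quartile rescaling, and the PSMB4 call was also lost without 100% replicate 2.

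PSMA3, an alpha ring subunit (chr14:58244831-58272012, plus strand), had the lowest log2 change of the core genes in each comparison at 25% and below. It had 637, 744 and 858 normalized counts without histidine, 519, 507 and 630.1 at 12.5%, 469 and 497 at 25%, 1097, 1244 and 754 at 50%, and 1069, 905 and 995 at 100% on day 6. It had 573, 495 and 623 at 12.5%, 503, 536 and 658 at 25%, 1449 and 1062 at 50%, and 1033, 1549.5 and 1143 at 100% on day 9. The libraries at 12.5% and 25% lay below all those at 50% and 100% on each day. The change was -0.85 ± 0.17 at 12.5% on day 6 (adjusted p = 0.000778), -1.03 ± 0.19 at 25% on day 6 (adjusted p = 0.000744), -1.12 ± 0.17 at 12.5% on day 9 (adjusted p = 5.30e-05) and -1.12 ± 0.17 at 25% on day 9 (adjusted p = 5.78e-05). The antisense gene PSMA3-AS1 had 456, 302 and 373 normalized counts without histidine, against 244, 274 and 212 at 100% on day 6, and its reads cannot be told apart from those of PSMA3 unless strand was used in the counting.

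PSMA1, another alpha subunit, had 1065, 1150.3 and 1518 normalized counts at 12.5% on day 6, against 2055, 2057 and 2223 at 100%, and 1684, 1355 and 1470.1 at 12.5% on day 9, against 2267, 2965 and 2390.5 at 100%. The groups did not overlap on either day. Its change was -0.78 ± 0.14 on day 6 (adjusted p = 0.000267) and -0.75 ± 0.14 on day 9 (adjusted p = 0.000496), and at 25% it was called on day 9 (-0.68 ± 0.14). PSMA4, PSMA5, PSMA6, PSMA7, PSMB2, PSMB3, PSMB6 and PSMB7 were called against 100% in no comparison.

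The core and cap were then set against each other as the mean log2 level of the 14 core genes and of the 17 cap genes in each library. The difference between core and cap carries no meaning as a level, since genes of different length are averaged, so only its change between groups is read. At 12.5% on day 6 the mean core level was 10.36 ± 0.34, against 10.75 ± 0.10 at 100% (SD, n = 3 each), and the mean cap level was 10.43 ± 0.17, against 10.77 ± 0.04. Core minus cap changed by -0.05 there, within the pooled SD of 0.13. Without histidine it changed by 0.10, also within the pooled SD of 0.13, and at 12.5% on day 9 it changed by 0.13, beyond the pooled SD of 0.06. At 25%, core minus cap was 0.17 in both libraries on day 6 and between 0.10 and 0.18 on day 9, against -0.09 to 0.04 at 100% on day 6 and -0.11 to 0.04 on day 9, so these libraries did not overlap. The cap mean averages unlike genes. At 25% on day 6, PSMD2, PSMD3, PSMC4 and PSMD1 changed by -1.30, -1.01, -0.92 and -0.73, whereas PSMD8, PSMD6 and PSMC1 changed by 0.47, 0.47 and 0.43. The first-named genes were also lower at 12.5% on day 9. Core minus cap without them was not computed, so its change is not read as one of the whole cap. Replicates of a group could differ widely in the core level, which was 10.07, 10.28 and 10.73 in the 3 libraries at 12.5% and 10.69, 10.98 and 10.32 in those at 50% on day 6.

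**Figure D3:**
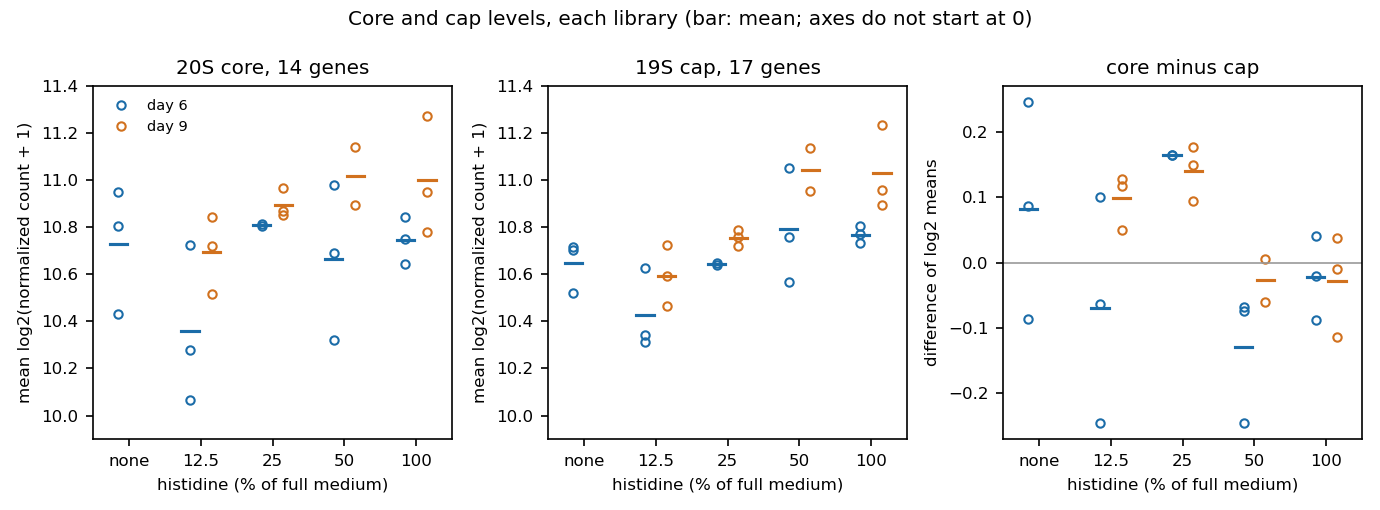
Mean log2(normalized count + 1) of 14 core genes (left) and 17 cap genes (middle) and their difference (right) by histidine level, with a circle per library, a bar at the group mean and y axes that do not start at 0. The libraries at 25% have core minus cap values between 0.10 and 0.18, above all those at 100%, and the 3 libraries at 12.5% on day 6 are spread from 10.07 to 10.73 in the core.

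The inducible catalytic subunits did not move together. PSMB8 and PSMB9, whose genes overlap at their ends on opposite strands at chr6:32840717-32844703 (minus strand) and chr6:32844136-32859585 (plus strand) in the HLA region, were lower without histidine and at 12.5% on day 6. PSMB10, encoded at chr16:67934502-67937087 (minus strand), was called in no comparison. Reads from the stretch that PSMB8 and PSMB9 share cannot be told apart unless strand was used in the counting.

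PSMB9 had 595, 784 and 883 normalized counts without histidine, 697, 933 and 1093 at 12.5%, 1609 and 1553 at 25%, 1410.2, 1509 and 1012 at 50%, and 1611, 1374 and 1530.2 at 100% on day 6. The groups without histidine and at 12.5% did not overlap with 25% or 100%, and the 25% libraries were as high as the full-medium ones. Its change was -1.01 ± 0.16 without histidine (adjusted p = 2.14e-05) and -0.75 ± 0.16 at 12.5% (adjusted p = 0.000897), and both calls held under every alternative tried. On day 9 it had 1198, 959 and 1123 at 12.5%, against 1355, 1484 and 1566 at 100%, which gave -0.43 ± 0.16 (adjusted p = 0.054).

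PSMB8 had 949, 1325 and 1341 normalized counts without histidine and 992, 1182 and 1566 at 12.5%, 1885 and 1782 at 25%, 1637, 1949 and 1324 at 50%, and 1938, 1670.0 and 1888 at 100% on day 6. The groups without histidine and at 12.5% did not overlap with 100%, but they overlapped with 50%. Its change was -0.62 ± 0.16 without histidine (adjusted p = 0.0043) and -0.58 ± 0.16 at 12.5% (adjusted p = 0.00866), and neither call remained without the keratin-high libraries (1 library left at 100%), nor the 12.5% call without 12.5% replicate 1. At 12.5% on day 9 it was -0.45 ± 0.16 (adjusted p = 0.0474), a call that 9 of 16 alternatives ended, with 100% replicates 1, 2 and 3 and 12.5% replicates 2 and 3 each ending it when left out.

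PSMB10 had 1471, 1939 and 1852 normalized counts without histidine, 1285, 1518 and 1933 at 12.5%, 2153 and 1958 at 25%, 1593, 1782 and 1370.2 at 50%, and 1542, 1455 and 1606 at 100% on day 6. Its highest group was 25%, and the no-histidine and 12.5% libraries overlapped with those at 100%. The largest change was 0.42 ± 0.14 at 25% on day 6 (adjusted p = 0.0512).

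Among the standard catalytic subunits, PSMB5, which cuts after bulky hydrophobic residues, had 389, 490.3 and 507 normalized counts without histidine, 233, 294 and 431 at 12.5%, 347 and 357 at 25%, 507, 602 and 378 at 50%, and 483, 547 and 532 at 100% on day 6. The 12.5% libraries lay below the full-medium ones but were widely spread. It was lower at 12.5% on day 6 (-0.75 ± 0.18, adjusted p = 0.00381) and on day 9 (-0.61 ± 0.18, adjusted p = 0.0207). The day 6 call did not remain without the keratin-high libraries, nor the day 9 call without 100% replicate 2 or 12.5% replicate 2. PSMB6 and PSMB7 were called in no comparison, with changes between -0.30 and 0.31 for PSMB6 and between 0.03 and 0.41 for PSMB7 at 25% and below.

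The mean of the inducible minus the standard catalytic genes changed by -0.50 without histidine relative to full medium, beyond the pooled SD of 0.10. It changed by -0.10 at 12.5% on day 6 (pooled SD 0.13) and by -0.02 at 12.5% on day 9 (pooled SD 0.10), within the spread. The values per library were -0.06, 0.00 and -0.01 without histidine, against 0.60, 0.32 and 0.50 at 100% on day 6. The 12.5% libraries on day 6 had 0.41, 0.46 and 0.25, which overlaps the full-medium range of that day. At 100% on day 9 the values were 0.28, 0.01 and 0.19, so full medium alone ran from 0.01 to 0.60 over both days. The value of -0.06 belongs to none replicate 1, whose time label is day 9.

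**Figure D4:**
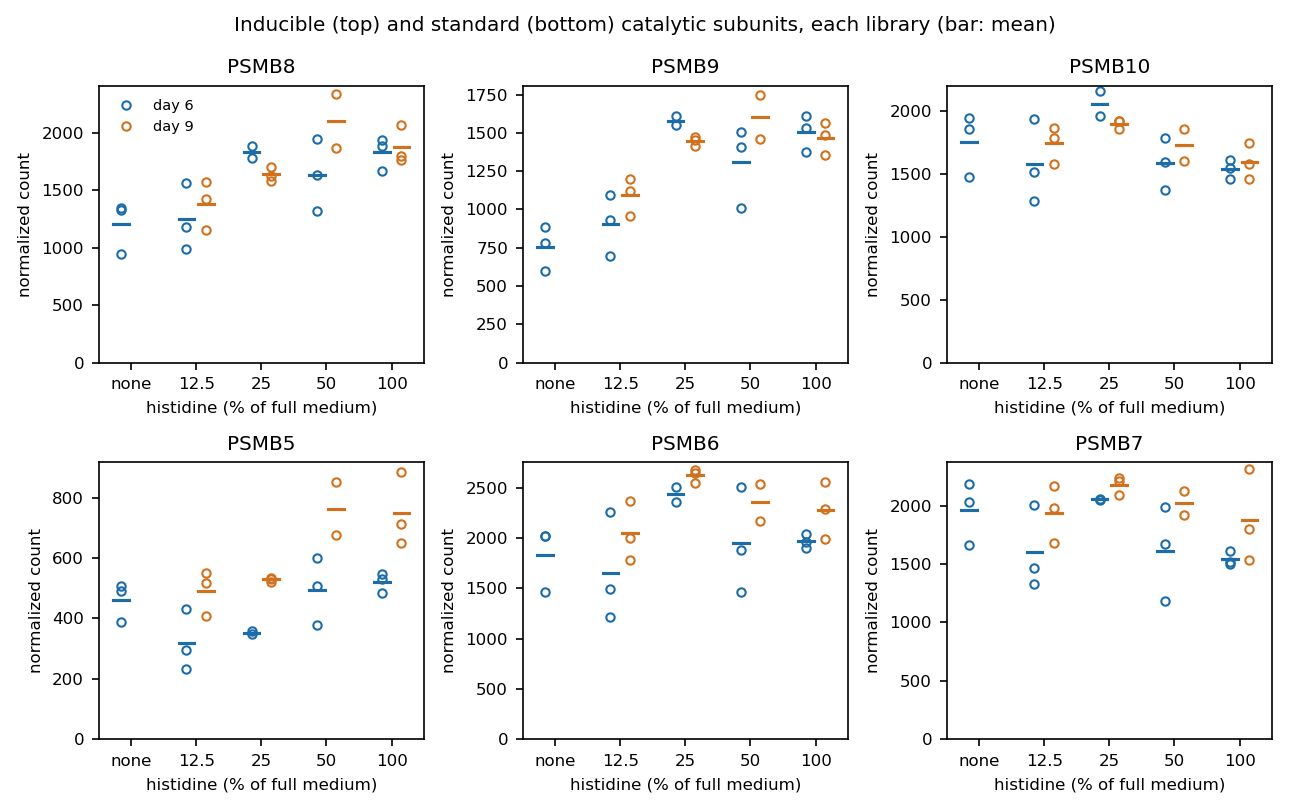
Normalized counts (y axis, from 0) of the inducible subunits PSMB8, PSMB9 and PSMB10 (top) and the standard subunits PSMB5, PSMB6 and PSMB7 (bottom) by histidine level (x axis, % of the full amount), with a circle per library (day 6 blue, day 9 orange) and a bar at the mean. PSMB9 without histidine lies between 595 and 883, below all libraries at 25% and 100%, whereas PSMB10 without histidine overlaps the libraries at 100%.

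The genes that hand proteasome peptides to HLA class I were described beside the immunoproteasome. Of 15 such genes, 9 were lower and 1 higher without histidine, 9 were lower at 12.5% on day 6 and 8 at 12.5% on day 9. These are 60%, 60% and 53.3% of the list lower, beside 16.5%, 15.3% and 11.5% of all genes. At 25%, 3 were lower and 1 higher on day 6 (20% lower, beside 6.92% of all genes), and 5 were lower and 1 higher on day 9 (33.3%, beside 8.76%). HLA-B, a class I heavy chain, had the largest fall, with 489 ± 82.1 normalized counts without histidine, against 1532 ± 139 at 100% (SD, n = 3 each), a log2 change of -1.65 ± 0.16 (adjusted p = 1.79e-08). TAP1, a peptide transporter gene of the HLA region, changed by -0.81 ± 0.16 without histidine, and IRF1, a transcription factor known to drive PSMB9 and TAP1, by -0.62 ± 0.08. B2M, the class I light chain, was instead higher at 25% on both days (0.83 ± 0.20 and 0.52 ± 0.18), where PSMB8 and PSMB9 were not called.

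Among the activators, PSME1 and PSME2, which build the interferon-inducible PA28 ring on the core, were lower at 12.5% on both days. PSME1 averaged 2237 ± 378 normalized counts at 12.5% on day 6, against 3361 ± 203 at 100%, and 2629.7 ± 388 at 12.5% on day 9, against 3776 ± 280 at 100% (SD, n = 3 each), with changes of -0.60 ± 0.14 and -0.53 ± 0.14. PSME2 changed by -0.59 ± 0.13 and -0.39 ± 0.13, and by -0.43 ± 0.13 without histidine. PSME3, the nuclear PA28 activator, was lower at 12.5% on both days (-0.37 and -0.48) and at 25% on day 9 (-0.43), and PSME4 was called in no comparison. Of these calls, PSME1 on day 6 and PSME3 at 12.5% on day 9 held under every alternative tried. On leaving out single libraries, the PSME1 call on day 9 was lost without 12.5% replicate 2, the PSME2 call without histidine was lost without 100% replicate 1 or none replicate 1 or 2, and that on day 9 without 100% or 12.5% replicate 2 or 3. The PSME3 call was lost on day 6 without replicate 1 of either group and at 25% without 100% replicate 2.

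PSMF1, which encodes the proteasome inhibitor PI31, went the other way. It had 3099 and 2801 normalized counts at 25% on day 6, against 2092, 2049 and 2068 at 100%, 3103, 3133 and 2965 at 25% on day 9 and 3094, 2653 and 2476 at 12.5% on day 9, against 2238, 2112 and 2275 at 100%. All 25% libraries exceeded all full-medium ones, and the day 9 libraries at 12.5% were also all higher. The changes were 0.51 ± 0.11 at 25% on day 6 (adjusted p = 0.00174), 0.47 ± 0.09 at 25% on day 9 (adjusted p = 0.000811) and 0.31 ± 0.09 at 12.5% on day 9 (adjusted p = 0.0219). The 25% call on day 9 held under every alternative tried, while the day 6 call was lost without 25% replicate 2 and the 12.5% call without 100% replicate 2, without 12.5% replicate 1 and in a fit on the compared groups alone.

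The core assembly factors split. PSMG1 and PSMG2 form a chaperone pair that starts the alpha ring. PSMG1 had 441, 554 and 545 normalized counts without histidine, 384, 537 and 602 at 12.5%, 646 and 733 at 25%, 839.9, 881 and 653 at 50%, and 997, 943 and 939 at 100% on day 6, with all restricted groups below full medium. Its change was -0.91 ± 0.14 without histidine (adjusted p = 2.00e-05), -0.94 ± 0.14 at 12.5% on day 6 (adjusted p = 2.58e-05), -0.48 ± 0.16 at 25% on day 6, -0.55 ± 0.14 at 12.5% on day 9 and -0.54 ± 0.14 at 25% on day 9. The call at 25% on day 6 (adjusted p = 0.0418) was lost on leaving out any 1 compared library.

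PSMG2 was the only member called higher in one and lower in another of the comparisons with 100% histidine. It had 499, 508 and 582 normalized counts without histidine, 464, 514 and 649 at 12.5%, 1092 and 1143 at 25%, 593, 809.9 and 542 at 50%, and 754, 706 and 649 at 100% on day 6. The 25% libraries were above all others, and those without histidine were below full medium. It was lower without histidine (-0.41 ± 0.13, adjusted p = 0.0215) and at 12.5% (-0.39 ± 0.13, adjusted p = 0.0328) and higher at 25% on day 6 (0.67 ± 0.15, adjusted p = 0.00303) and on day 9 (0.44 ± 0.13, adjusted p = 0.0226). The day 6 call at 25% held under every alternative tried, and each of the other 3 was lost on leaving out 1 of several libraries: 100% replicate 1 for all 3, 100% replicate 2 for both day 6 calls and 100% replicate 3 on day 9, none replicates 1 and 2, 12.5% replicates 1 and 2, and 25% replicates 1 and 3.

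POMP, which guides the beta rings into place and is degraded by the finished core, had 2298 and 2419.8 normalized counts at 25% on day 6, against 1365, 1422 and 1578 at 100%, and 2649, 2695 and 3066 at 25% on day 9, against 1683, 2308 and 1741 at 100%. Both 25% groups lay above their full-medium libraries. The change was 0.70 ± 0.22 on day 6 (adjusted p = 0.0394) and 0.56 ± 0.20 on day 9 (adjusted p = 0.0539), and the day 6 call was lost on leaving out any 1 compared library. PSMB1, the core subunit with 2524 and 2281 at 25% on day 6, against 1537, 1446 and 1587 at 100%, had 0.66 ± 0.21 (adjusted p = 0.0394), and its call was lost in the same way. PSMG4, a further core chaperone, was lower without histidine (-0.48) and at 12.5% on day 6 (-0.80), and PSMG3 was called in no comparison. Among the cap chaperones, PSMD10 was lower in all 5 comparisons, by between -0.70 and -0.42, and PSMD5 and PSMD9 were called in none. The PSMG4 call without histidine was lost without 100% replicate 1 or none replicate 1 or 2. The PSMD10 call was lost on leaving out any 1 compared library at 25% on day 9, any but 100% replicate 3 at 25% on day 6, and 100% replicate 2 or 12.5% replicate 2 or 3 at 12.5% on day 9.

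NFE2L1 and NFE2L3 are related factors of the cap'n'collar family, and NFE2L1 is known for raising proteasome genes when proteasome activity is blocked. NFE2L1 had between 4350.3 and 5773 normalized counts over all libraries and was called in no comparison, with changes between 0.00 and 0.11 at 25% and below. NFE2L3 had 77.9, 77.2 and 93.1 without histidine, 90.3, 65.3 and 59.2 at 12.5%, 52.8 and 42.8 at 25%, 36.8, 47.1 and 58.6 at 50%, and 39.9, 37.7 and 38.5 at 100% on day 6. The groups without histidine and at 12.5% lay above full medium at this low level. Its change was 1.07 ± 0.24 without histidine (adjusted p = 0.00122) and 0.85 ± 0.24 at 12.5% (adjusted p = 0.00997), and the 12.5% call did not remain without 12.5% replicate 1 or without the keratin-high libraries. On day 9 at 12.5% the values were 50.6, 46.9 and 55.0, against 44.5, 42.3 and 33.0 at 100%, a change of 0.35 ± 0.24 (adjusted p = 0.336).

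**Figure D5:**
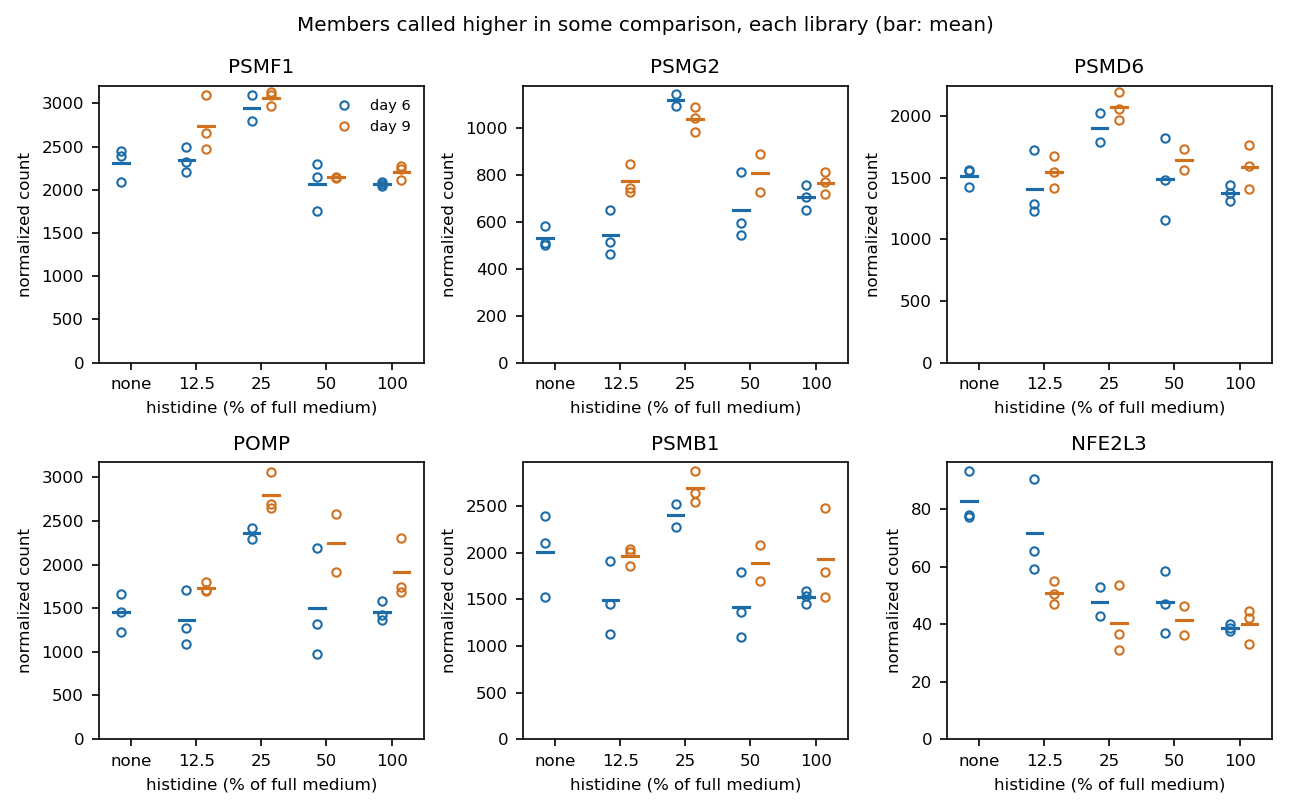
Normalized counts (y axis, from 0) of 6 members called higher in at least 1 comparison by histidine level (x axis, % of the full amount), with a circle per library (day 6 blue, day 9 orange) and a bar at the group mean. PSMF1, PSMG2, PSMD6, POMP and PSMB1 have their highest group mean at 25%, whereas NFE2L3 is highest without histidine, between 77.2 and 93.1.

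Several proteasome transcripts were higher without histidine than at 12.5%. On day 6, 7 members were higher and none was lower in the limma test, against 7% and 8.26% of all genes, and 15 members had an unadjusted p under 0.05. Numbers of members by unadjusted p or by side are given without a share of all genes and are not read as a result about the members. The 7 were PSMA1 (0.50), PSMA7 (0.51), PSMB4 (0.63), PSMB5 (0.57), PSMD2 (0.40), PSMD3 (0.49) and PSME1 (0.41). The median change of the 49 members was 0.20 (all genes -0.01), and 41 of them were on the higher side. PSMD2 (adjusted p = 0.00624) and PSMD3 (adjusted p = 0.00438) held under every alternative tried, but the count was 2 without 12.5% replicate 1 or 2 or none replicate 2 or 3, 13 without 12.5% replicate 3 and 11 without none replicate 1, the library whose time label differs from its title.

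At 50% histidine none of the 49 members differed from full medium in the limma test on day 6 (0% of all genes were called) or on day 9 (0.00532% of all genes), and 1 member had an unadjusted p under 0.05 on each day. Between the days, day 9 against day 6 at 100% gave 0 calls among the members (2.17% of all genes). Of the 49, 46 were on the higher side with a median of 0.20, and 9 had an unadjusted p under 0.05. Members share libraries, and counts by side or by unadjusted p are given here without a share of all genes. Such counts are not read as a result about the members. Replicate 2 at 100% on day 9 had the highest value of its group in PSMD1, PSMD2, PSMD3, PSMD14, PSMA1, PSMA3, PSMB5 and PSMC4. The response was called different between the days for no member: 0 of 49 passed for the difference of the 12.5% effect (0.0638% of all genes) and 0 for that of the 25% effect (0.00532% of all genes), with 3 and 0 members at an unadjusted p under 0.05.

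The call counts at 25% and below depended on single libraries. Without histidine, 14 calls became 8 without 100% replicate 1, and at 12.5% on day 9, 17 became 11 without 100% replicate 2 or without 12.5% replicate 2. At 25% on day 6, where only 2 libraries are available, 12 calls became 7 without 100% replicate 1 or 2 or 25% replicate 2 or 3. Without the keratin-high libraries, which leaves 1 library at 100% on day 6 and 1 at 25% on day 9, the calls were 6 without histidine, 13 at 12.5%, 7 at 25% on day 6 and 7 at 25% on day 9.

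Partner genes of the proteasome that were called at 25% were all higher. The lists of ubiquitin and p97 genes and of genes that process NFE2L1 had lower calls there. Of 14 partner genes tested, 5 were higher at 25% on day 6 (35.7%, beside 6.79% of all genes) and 7 on day 9 (50%, beside 9.4%). Without histidine, 3 were higher and 2 lower (21.4% and 14.3%, beside 13.3% and 16.5% of all genes), so the share that was lower was near that of all genes. At 12.5%, 3 were higher and 2 lower on day 6 (beside 11.7% and 15.3% of all genes), and 4 were higher and 1 lower on day 9 (28.6% and 7.14%, beside 9.35% and 11.5%). ADRM1, a ubiquitin receptor that docks on PSMD2, averaged 4491 ± 253 normalized counts at 25% on day 6 (SD, n = 2), against 2801 ± 153 at 100% (SD, n = 3), a change of 0.68 ± 0.13 (adjusted p = 0.00122), and 5066 ± 443 at 25% on day 9, against 3301 ± 218 at 100% (SD, n = 3 each), a change of 0.62 ± 0.12 (adjusted p = 0.000705). PAAF1, which binds the ATPases and is known for holding the cap off the core, was higher in all 5 comparisons, by between 0.40 and 0.63. UCHL5, the deubiquitinase bound through ADRM1, was lower without histidine (-0.56) and at 12.5% on day 6 (-0.37) and day 9 (-0.45). Among 10 ubiquitin and p97 genes, 1 was higher and 1 lower without histidine, 4 were lower at 12.5% and 1 at 25% on day 6, 2 were lower at 12.5% on day 9, and 1 was higher and 2 lower at 25% on day 9. The share lower was 40% at 12.5% on day 6, beside 15.3% of all genes, and the other counts of 1 or 2 genes are too few to set against the shares of all genes. UBA1, the main ubiquitin-activating enzyme, was lower at 12.5% and 25% on both days, by between -0.33 and -0.23. Among 10 genes that process NFE2L1, 3 were higher and 1 lower without histidine, 1 was higher and 2 lower at 12.5% on each day and at 25% on day 6, and 1 was lower at 25% on day 9. The 3 higher without histidine are 30% of the list, beside 13.3% of all genes. Of these 10, SEL1L, a membrane subunit of the endoplasmic reticulum degradation machinery, was lower in all 5 comparisons, by between -0.57 and -0.41.

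Promoter sequence was examined because several members moved together. RefSeq promoter entries on GRCh38.p14 matched 44 of the 50 members, and the 150 bases before the transcript start were searched on both strands for 3 motifs. TGACNNNGC, the core of the antioxidant response element that NFE2L1 binds, was found in 7 of the 44 (15.9%), against 7.29% of 35116 promoters. CCAAT, the box bound by NF-Y, was found in 13 of the 44 (29.5%), against 23.5% of all promoters. The core of interferon-stimulated response elements, a TTTC repeat with a spacer of NN, was found in 4 of the 44 (9.09%), against 1.74% of all promoters, and PSMB10 was among these while PSMB8 and PSMB9 were not. A match is a description of the letters and not a site.

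The stretches below show the promoters of 3 members that were lower at 12.5% and 25% on both days, with and without such a motif, and of PSMB9. Each is the part of the 150-base window that no GENCODE 29 exon covers, 5′ to 3′ on the gene's strand, with motif letters in capitals. PSMA3 (chr14:58244693-58244830, plus strand) holds CCAAT on each strand, PSMD3 (chr17:39980657-39980796, plus strand) and PSMB9 (chr6:32854042-32854160, plus strand) hold TGACNNNGC, on the plus and the minus strand in that order, and PSMD1 (chr2:231056717-231056863, plus strand) holds none of the 3. The PSMB9 stretch lies inside the interval of its gene (chr6:32844136-32859585), downstream of the part that overlaps PSMB8.
PSMA3: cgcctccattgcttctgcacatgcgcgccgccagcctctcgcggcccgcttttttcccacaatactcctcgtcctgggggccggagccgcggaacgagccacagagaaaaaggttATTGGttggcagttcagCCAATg
PSMD3: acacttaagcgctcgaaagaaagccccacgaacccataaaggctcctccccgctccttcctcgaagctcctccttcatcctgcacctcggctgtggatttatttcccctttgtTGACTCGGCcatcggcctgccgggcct
PSMD1: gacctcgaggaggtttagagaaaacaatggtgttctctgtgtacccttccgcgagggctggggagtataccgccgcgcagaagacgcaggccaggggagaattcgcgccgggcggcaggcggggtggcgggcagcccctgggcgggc
PSMB9: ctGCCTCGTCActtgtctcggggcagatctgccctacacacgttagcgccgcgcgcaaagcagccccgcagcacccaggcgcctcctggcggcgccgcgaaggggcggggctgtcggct

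Members that were lower at 12.5% on day 6 were found both with and without each of the 3 motifs. At 12.5% histidine on day 6, 3 of the 7 tested members with TGACNNNGC were lower, and 17 of the 36 without it. With CCAAT, 6 of 12 tested members were lower, and 14 of 31 without it. With the TTTC repeat, 3 of 4 were lower (PSMB4, PSME2 and PSMG4, but not PSMB10), and 17 of 39 without it. The median change was -0.26 with TGACNNNGC and -0.37 without it, -0.40 with CCAAT and -0.35 without it, and -0.56 with the TTTC repeat and -0.35 without it.

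The share of histidine codons in the coding sequence was counted because the treatment withheld that amino acid. In the longest coding sequence of each gene in GENCODE 29, the 49 tested members had a median of 1.97% histidine codons, against 2.46% over 12133 tested genes with a coding sequence. The members ran between 0.379% for PSMG2 (1 of 264 codons) and 4.61% for NFE2L3 (32 of 694 codons), with PSMD10 at 3.98% and PSMD14 at 3.87%. Across the 49 members, which share the libraries, the correlation between this share and the log2 change was weak: Spearman's rho was -0.16 without histidine, -0.09 at 12.5% and -0.23 at 25% on day 6, and -0.13 at 12.5% and -0.20 at 25% on day 9, and Pearson's r was 0.01, 0.02, -0.24, -0.04 and -0.16 in the same order.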

How the data were processed

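RNA of DND-41 cells was sequenced from strand-specific libraries, per the labels' protocols. The deposited signal values are gene-level normalized counts that the authors made with DESeq2 1.44.0. The authors also used FastQC 0.11.9, kallisto 0.50.1 and build GRCh38, per the submitters' processing notes, which give no roles. For the annotation release and the use of strand, nothing is given in the sources used here. Reads can be shared among near-identical copies, so levels of PSMA2, PSMA6, PSMC1, PSMD10, PSME2 and NFE2L3, which have listed pseudogenes, are uncertain.

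Groups follow the titles. None replicate 1 has day 6 in its title and day 9 as time label and was kept at day 6. Days are given as on the samples, and the text of the series gives others. Between 37.8% and 76.1% of values under 20 per library lay within 0.05 of a whole multiple of a best step, so reads were not recovered and depth is unknown.

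Genes with at least 10 normalized counts in at least 2 libraries were kept (18799). The model, in limma 3.58.1 under R 4.3.3, took log2(value + 1) with 9 group means, 16 residual degrees of freedom and a trend of variance with level. This scale understates changes of low genes. P-values are two-sided. The procedure was tested on simulated data. Alternatives were another pseudocount and filters, other scalings, no mean trend, a replicate block, library weights, a fit on the compared groups, and leaving out each library or those whose keratins exceed 100 normalized counts.

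The members, lists and alternatives were chosen with earlier results of these data known. Members named by rule were up to 3 each way in the comparisons with 100% of the no-histidine group and of 12.5% on each day, plus the catalytic subunits, POMP, NFE2L1 and NFE2L3, and other genes were named after their values were seen. Positions and coding sequences come from GENCODE 29 and promoters from RefSeq (GRCh38.p14), neither of which need be the authors' annotation. For a gene with several promoter entries, the entry nearest the start of its longest-coding transcript was used. Plots used matplotlib 3.10.9 (Python 3.11.15).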

Additional observations from a re-analysis of the deposited data

How the results depend on the processing

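Of 86 member calls examined, 43 held under every alternative, 43 were lost in at least 1 and none changed direction. The number of members called without the keratin-high libraries was 6 without histidine (14 in all libraries), 13 at 12.5% on day 6 (22), 7 at 25% on day 6 (12), 4 for none against 12.5% (7) and 7 at 25% on day 9 (14). That setting leaves 1 library at 50% and 100% on day 6 and at 25% on day 9, so these counts rest on groups of 1. With no mean trend it was 7 at 25% on day 6 and 3 for none against 12.5%. With library weights these were 22 and 21, and 1 member was called for day 9 against day 6 at 100% (0). A fit on the compared groups gave 27 and 2. The cause of these shifts was not tested. Leaving out each library in turn gave between 8 and 14 calls without histidine, 16 and 26 at 12.5% and 7 and 8 at 25% on day 6, 2 and 13 for none against 12.5%, 11 and 16 at 12.5% on day 9, and 10 and 15 at 25% on day 9. The 50% comparisons and the differences between days kept 0 calls under every alternative. The changes of core minus cap and of inducible minus standard catalytic genes stayed within the spread between replicates of their values as given.

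Replicate numbers did not pair the samples: of 19 same-number pairs of a restricted library and 100% of its day, 0 correlated over 0.1. With the number as a replicate block the calls were 14 without histidine, 20 at 12.5% and 8 at 25% on day 6, 6 for none against 12.5%, 16 at 12.5% and 13 at 25% on day 9. Original read depth is unknown, so the precision of low members such as NFE2L3 rests on the spread between 2 or 3 libraries.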
